A study of Mus musculus with 2 samples.

Results

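Dividing neutrophil precursors were described here as cells of the mouse calvarial defect that carried neutrophil granule transcripts and cell cycle transcripts together. They were chosen from measured counts, by a rule on unique molecular identifiers (UMIs, each counting 1 captured RNA molecule). A cell was a member with S100a8 and S100a9 at 1% or more of its UMIs, Camp, Ngp and Ltf at 0.5% or more, and at least 3 UMIs of Mki67, Top2a and Ube2c. Members also had at most 3 UMIs of the B cell genes Cd79a and Cd79b and under 1% of UMIs on the collagen genes Col1a1 and Col1a2. The rule chose 711 of 17129 cells within the quality limits, 478 of 9036 in the GA library and 233 of 8093 in the control library.

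The study asked how gambogic amide (GA), a small molecule, changes the cells of a healing skull defect in C57BL/6 mice. GA treated mice were injected intraperitoneally with GA at 1.2 mg/kg per the labels, in 10% DMSO, daily for 1 week from 24 h before injury. Control mice were injected on the same schedule with 100 µL of the vehicle, 10% DMSO, and both groups carried the same surgical defect. Defect tissue was taken 7 days after injury, digested in 6 sequential rounds of collagenase and pooled over 5 male mice of 2 months per condition, and red blood cells were lysed. Each condition has 1 library, so no difference between the conditions has a replicate check and no test was made. All intervals given are 95% intervals that cover counting error only. Those of gene ratios treat each UMI as a separate draw, so they leave out the spread between cells of a library.

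Neutrophils are made in bone marrow from progenitors that pass through the promyelocyte, myelocyte and metamyelocyte stages. Granule proteins are made in an order: azurophil granule enzymes first, in promyelocytes, then specific granule proteins, in myelocytes, and gelatinase granule proteins last. Division ends at the myelocyte stage, so a cell with specific granule transcripts and mitotic transcripts is at the end of the dividing phase of the lineage. The transcription factor Cebpe is needed for the specific granule programme.

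The GA library held 182949385 UMIs in 9322 barcodes and the control library 214993030 UMIs in 8718 barcodes. The median cell within the limits had 11267 UMIs in GA and 17499 UMIs in the control. Members were deeper, with a median of 29133.5 UMIs per cell in GA (range 4025 to 104074) and 24864 UMIs in the control (range 4770 to 57305). Non-dividing immature neutrophils, which met the same rule with under 3 cell cycle UMIs, had medians of 10952 and 8228 UMIs. The libraries shared 23 cell barcodes, 21 of them within the limits in both, and none of the members had a barcode found in the other library.

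The label was checked against 6 markers. Camp, which encodes the antimicrobial cathelicidin (ENSMUSG00000038357, GRCm38 chr9:109847379-109849617, minus strand), had UMIs in all members, at 39291 CPM (UMIs scaled to a library total of 1e+06 for the cells of the class) in GA and 50918 CPM in the control. Ngp, neutrophilic granule protein (chr9:110419747-110423012, plus strand), stood at 27586 and 29668 CPM. Ltf, the iron-binding lactoferrin (chr9:111019271-111042767, plus strand), stood at 5804 and 5552 CPM and was seen in 94.98% and 94.85% of members. These 3 granule genes were part of the rule, as were the proliferation antigen Mki67 (chr7:135689784-135716361, minus strand) and topoisomerase Top2a (chr11:98992943-99024189, minus strand). Mki67 had UMIs in 99.2% of GA members and 99.1% of control members, and Top2a in 91.6% and 93.6%.

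Cebpe (ENSMUSG00000052435, chr14:54710360-54712174, minus strand) was the marker that the rule did not use. Its level was 430 CPM in GA members and 426 CPM in control members, against 169 and 181 CPM in non-dividing immature neutrophils. Among cells thinned to 5000 UMIs, 81.5% (77.7 to 84.9) of GA members and 77.2% (71.2 to 82.4) of control members had a Cebpe UMI. Of cells that should lack it, 1.09% of B lineage cells and 1.10% of mesenchymal cells of the GA library had one at the same thinned depth. In the control library these were 0 of 392 B lineage cells, an exact interval of up to 0.937%, and 0.151% of mesenchymal cells. Median depths before thinning were 7009 and 6508 UMIs in B lineage cells and 49884.5 and 51035 UMIs in mesenchymal cells. The share of members with Cebpe was thus far above background in both libraries.

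Neutrophil transcripts were also found in cells of other types, in more of them in GA. S100a8, an abundant neutrophil transcript, had a UMI in 60.5% of GA B lineage cells and 26.5% of control B lineage cells thinned to 5000 UMIs. In mesenchymal cells it was found in 56.6% and 22.3%. The part of this background in the differences between the libraries given below was not tested.

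Members near the thresholds were few. Cells that met the rest of the rule with 2 cell cycle UMIs numbered 27 in GA and 14 in the control, and their median depths were 14504 and 13771.5 UMIs. Members with exactly 3 cell cycle UMIs numbered 15 and 4. The median member had 46 cell cycle UMIs in GA and 38 in the control, while 1511 GA and 655 control cells with the same granule content had none. Members with 0.5 to 1% of UMIs on Camp, Ngp and Ltf numbered 12 and 6, and 10 and 3 cells lay just outside, at 0.25 to 0.5%.

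Dividing precursors were a larger share of GA cells than of control cells, but the same was seen in each of the other classes below. They made up 5.29% (4.84 to 5.77) of the 9036 GA cells and 2.88% (2.53 to 3.27) of the 8093 control cells, a ratio of 1.84 (1.58 to 2.14). The 2 intervals of the shares did not overlap. Non-dividing immature neutrophils stood at 18.4% of GA cells and 8.88% of control cells, a ratio of 2.08 (1.91 to 2.25). Mature neutrophils, with S100a8 and S100a9 but under 0.5% of UMIs on the 3 granule genes, stood at 29.1% and 14.6%, a ratio of 1.99 (1.87 to 2.12). Promyelocyte-stage cells, with 0.5% or more of UMIs on Mpo, Elane, Prtn3 and Ctsg and under 0.5% on Camp, Ngp and Ltf, stood at 2.89% and 1.24%, a ratio of 2.34 (1.86 to 2.94). This class was not limited to neutrophil precursors. Its basophil and mast markers summed to 823 and 1521 CPM, eosinophil markers to 10.6 and 398 CPM and monocyte markers to 1785 and 2562 CPM. Single mature neutrophils reached 4.72% and 5.05% of UMIs on the azurophil genes, so the mature and promyelocyte-stage classes share some cells.

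Within the neutrophil lineage the dividing share was close in the 2 libraries. Members were 22.3% (20.5 to 24.1) of 2145 immature neutrophils in GA and 24.5% (21.8 to 27.3) of 952 in the control, a ratio of 0.911 (0.794 to 1.04). Of all 3 neutrophil classes with S100a8 and S100a9 they were 10.0% of 4772 cells in GA and 10.9% of 2133 in the control, a ratio of 0.917 (0.791 to 1.06). Both intervals include a ratio of 1 and reach down to 0.794 and 0.791. They cover counting error only and set no limit on a difference between mice. Among all cells of any type with at least 3 cell cycle UMIs, members were 27.6% of 1730 cells in GA and 16.8% of 1383 cells in the control, a ratio of 1.64 (1.43 to 1.89). All cells with that many cell cycle UMIs were 19.1% of GA cells and 17.1% of control cells. With shares of 1 library each, more of these cells and fewer of other cells in the digest cannot be told apart.

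**Figure D1:**
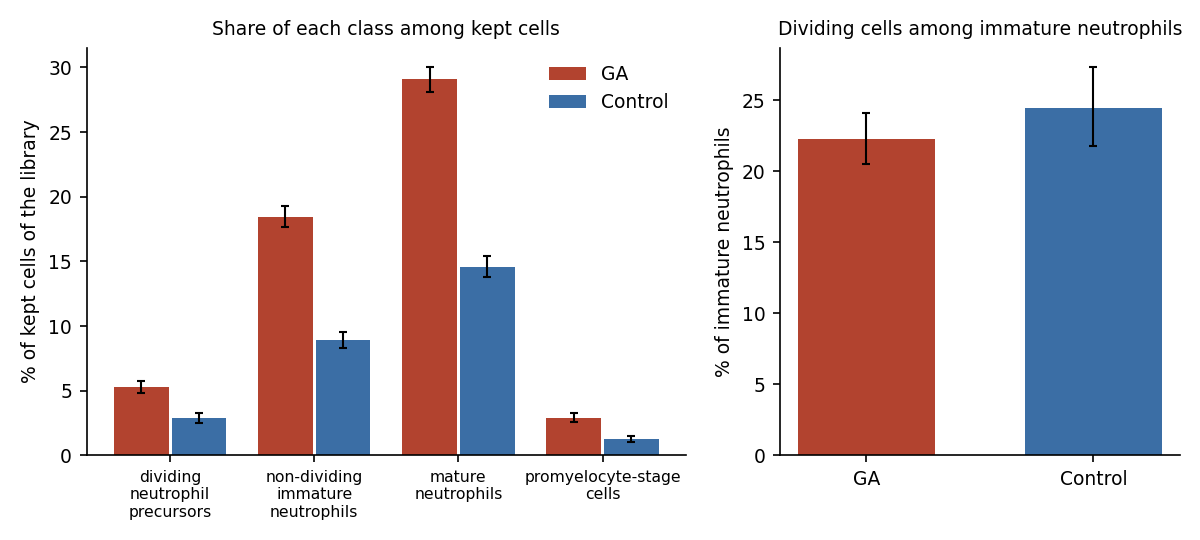
Bars give the share (%) of each class among kept cells (left) and of dividing cells among immature neutrophils (right), with exact 95% intervals for counting error. The GA library is red and the control library blue. Each class had a larger share in GA on the left, by ratios of 1.84 to 2.34, and the intervals of the dividing shares of 22.3% and 24.5% on the right overlap.

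Cell cycle genes set the members apart from non-dividing immature neutrophils, as the rule on 3 of them required. This contrast was therefore a description, and nothing is read from its counts. Among 8147 genes with at least 200 UMIs over both classes, 2004 (24.6%) were more than 2-fold higher in members in both libraries and 960 (11.8%) more than 2-fold lower. The median gene was higher in members by 0.25 on the log2 scale in GA and 0.15 in the control, and list medians are to be read against that shift. Of 42 G2 and M phase genes, 41 were more than 2-fold higher in both libraries, with medians of 6.72 and 6.34 on the log2 scale. This list holds the rule genes Mki67, Top2a and Ube2c, whose direction the rule set in advance. The exception was the securin gene Pttg1, at 9.15 and 8.02 CPM in members and 12.2 and 12.7 CPM in non-dividing cells. All 32 S phase genes were more than 2-fold higher in both libraries, with medians of 4.76 and 4.09. All 12 replication-dependent histone genes were as well, with medians of 6.34 and 6.35.

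The histone, mitotic and replication genes with the largest contrasts were nearly silent in non-dividing immature neutrophils. Hist1h1b, which encodes a linker histone made with DNA replication, stood at 539 CPM in GA members and 432 CPM in control members, against 1.303 and 0.464 CPM in non-dividing cells. Promyelocyte-stage cells had it at 395 and 462 CPM. Pclaf, whose product binds the replication clamp, stood at 367 and 333 CPM against 1.88 and 1.39 CPM. Fbxo5, an inhibitor of the anaphase-promoting complex, stood at 69.9 and 67.7 CPM against 0.261 and 0.155 CPM. Plk1, the mitotic polo-like kinase, stood at 54.2 and 47.3 CPM against 0.208 CPM in GA non-dividing cells and no UMI in the control. Hist1h2ab stood at 84.0 and 88.8 CPM in members, and Hist1h2af and Hist1h2ai had no UMI in non-dividing cells of either library. Depdc1a and Cdca2, both mitotic genes, completed the 10 highest together with the rule gene Ube2c. Histone genes of this family are near-identical copies, so reads may be split between them.

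The mitotic genes were high together, so the promoters of representative members are shown. The RefSeq sequences of build GRCm38.p6 run from 170 bases before the annotated start site to 29 bases after it, 5′ to 3′ on the strand of the gene. Ube2c is at chr2:164769759-164769958 on the plus strand, Plk1 at chr7:122159265-122159464 on the plus strand, and Ccnb2, which encodes the mitotic cyclin B2, at chr9:70421525-70421724 on the minus strand. Mcm5, a subunit of the replicative helicase and here an S phase gene, is at chr8:75109339-75109538 on the plus strand. In the first 3 sequences capitals mark TTTGAA or TTTAAA, the letters of the cell cycle homology region (CHR), and CCAAT, each on either strand. In Mcm5 capitals mark only TTTCGCGC and TTTGGCGC, letters of E2F sites, which overlap there on opposite strands.
Ube2c: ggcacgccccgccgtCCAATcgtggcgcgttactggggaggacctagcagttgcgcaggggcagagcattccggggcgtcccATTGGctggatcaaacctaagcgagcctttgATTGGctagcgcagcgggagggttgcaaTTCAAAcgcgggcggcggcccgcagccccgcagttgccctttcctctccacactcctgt
Plk1: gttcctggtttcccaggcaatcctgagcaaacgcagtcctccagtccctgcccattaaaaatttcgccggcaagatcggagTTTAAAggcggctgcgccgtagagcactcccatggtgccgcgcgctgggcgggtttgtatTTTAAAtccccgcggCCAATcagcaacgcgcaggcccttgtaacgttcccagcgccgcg
Ccnb2: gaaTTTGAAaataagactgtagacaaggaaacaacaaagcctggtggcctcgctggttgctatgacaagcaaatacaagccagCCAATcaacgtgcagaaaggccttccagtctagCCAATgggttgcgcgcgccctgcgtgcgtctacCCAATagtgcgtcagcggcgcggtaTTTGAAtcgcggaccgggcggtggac
Mcm5: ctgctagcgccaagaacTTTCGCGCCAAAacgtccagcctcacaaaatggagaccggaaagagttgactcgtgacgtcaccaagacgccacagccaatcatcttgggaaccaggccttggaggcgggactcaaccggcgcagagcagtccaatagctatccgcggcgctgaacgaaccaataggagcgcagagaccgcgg

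CHR letters began 29 bases before the start site in Ube2c (on the reverse strand), 29 and 89 bases before it in Plk1, and 167 bases before and 4 bases after it in Ccnb2. CCAAT began 57, 88 and 155 bases before the start site in Ube2c, 14 bases before it in Plk1, and 21, 54 and 87 bases before it in Ccnb2. Over 300-base promoters (250 bases before to 50 after the start), 31 of 38 promoters of 36 matched G2 and M phase genes held CHR letters on either strand (81.58%), against 27.59% of all 32851 promoters. CCAAT was in 28 of these 38 (73.68%), against 37.41% of all, and both were in 26 (68.42%), against 10.73%. The rule genes Mki67, Top2a and Ube2c are in this set, and Ect2 and Prc1 each enter it more than once with overlapping promoters. All of these promoters held both CHR letters and CCAAT. TTTGGCGC or TTTCGCGC was in 8 of 28 promoters of 25 matched S phase genes (28.57%), against 1 of 38 G2 and M phase promoters (2.632%) and 0.8128% of all. CHR letters were in 6 of the 28 S phase promoters (21.43%). TTTAAA reads the same on both strands. A match of letters is a description and was not tested as a site of binding.

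Genes that set the length of G1 or brake the cycle were mixed in direction. Ccne1, the cyclin of S phase entry, stood at 18.04 CPM in GA members and 16.03 CPM in control members, against 0.469 and 0.155 CPM in non-dividing cells. Ccnd3, the D cyclin with most UMIs here, stood at 251 and 247 CPM in members and 299 and 266 CPM in non-dividing cells. The G1 kinases Cdk4 and Cdk6 stood at 28.1 and 58.6 CPM in GA members and at 27.3 and 72.0 CPM in control members. In promyelocyte-stage cells Cdk4 was at 240 and 190 CPM and Cdk6 at 459 and 441 CPM, so both were lower in members than in that class. Of 10 cell cycle inhibitors, 4 were more than 2-fold higher in members than in non-dividing cells in both libraries and 1 more than 2-fold lower, against 24.6% and 11.8% of all genes. The 4 were Cdkn1a, Cdkn1c, Rbl1 and Cdkn2c, the last at 43.7 and 40.6 CPM against 0.886 and 1.08 CPM. Btg2, an antiproliferative gene, was the one more than 2-fold lower, at 96.2 and 128 CPM against 392 and 421 CPM.

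Most members carried more G2 and M phase transcripts than S phase transcripts. After thinning to 5000 UMIs the median member had 21 UMIs on the G2 and M phase genes outside the rule in each library and 7 (GA) or 7.5 (control) UMIs on S phase genes. Non-dividing cells had medians of 1 and 0. Cells with at least 2 times more G2 and M phase than S phase UMIs were 65.8% (61.3 to 70.0) of 476 GA members and 60.3% (53.7 to 66.7) of 232 control members. Cells with the reverse were 11.3% (8.64 to 14.5) and 15.1% (10.7 to 20.4), and nearly all others held both in closer numbers. The intervals of the 2 libraries overlap for each share. The rule used 3 genes that peak in G2 and M phase, so early S phase cells without them were not members.

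S-called members were at an earlier granule stage than G2/M-called members by their transcripts. Mpo, the azurophil enzyme myeloperoxidase, stood at 1464 CPM in the 54 S-called and 304 CPM in the 313 G2/M-called GA members. In the control it stood at 1630 CPM in 35 and 301 CPM in 140 cells. Ltf was the reverse, at 4078 and 7044 CPM in GA and 2949 and 6637 CPM in the control. Cd177, a specific granule surface protein, followed Ltf, at 384 and 780 CPM in GA and 270 and 639 CPM in the control. Cebpe differed less, at 311 and 457 CPM in GA and 395 and 446 CPM in the control.

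Of 7 azurophil genes, 5 were more than 2-fold higher in members than in non-dividing immature neutrophils in both libraries, against 24.6% of all genes. Mpo stood at 734 CPM in GA members and 618 CPM in control members, against 4328 and 4264 CPM in promyelocyte-stage cells and 10.8 and 79.6 CPM in non-dividing cells. Elane, neutrophil elastase, stood at 2129 and 2172 CPM in members and 5768 and 8169 CPM in promyelocyte-stage cells. Prtn3, proteinase 3, stood at 2239 and 1562 CPM in members and 8102 and 7432 CPM in promyelocyte-stage cells. Ctsg, cathepsin G, stood at 472 and 281 CPM against 4378 and 4280 CPM. Srgn, the granule proteoglycan serglycin, was lowest in members, at 708 and 771 CPM against 1408 and 1564 CPM in non-dividing cells, and Ctsc, cathepsin C, stood at 35.5 and 27.2 CPM against 26.3 and 20.6 CPM. All 7 azurophil genes were more than 2-fold lower in members than in promyelocyte-stage cells in both libraries, 4 of them genes that define the latter class. Over all 8808 genes compared with those cells, 29% were more than 2-fold lower in members and 6.83% more than 2-fold higher, and the median gene had a log2 ratio of -0.58 in GA and -0.54 in the control.

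Of 10 specific granule genes, 9 were more than 2-fold higher in members than in promyelocyte-stage cells (6.83% of all genes were), where the class rule keeps Camp, Ngp and Ltf low. The exception was Ptx3, a pentraxin, on 14 and 7 UMIs in members, at 0.942 and 1.15 CPM. Against non-dividing immature neutrophils the genes split. Fcnb, a ficolin, was higher in members, at 860 and 1208 CPM against 82.4 and 114 CPM, and so was the chitinase-like gene Chil3, at 7832 and 7859 CPM against 2678 and 3019 CPM. Ltf was lower in members, by 0.72 and 0.65 on the log2 scale, with 9591 and 8703 CPM in non-dividing cells. Olfm4, olfactomedin 4, was more than 2-fold lower, at 54.1 and 78.8 CPM against 129 and 228 CPM. Cd177 stood at 635 and 512 CPM in members and 1039 and 870 CPM in non-dividing cells.

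Gelatinase granule and late genes were lower in members than in non-dividing cells, all 6 more than 2-fold in both libraries, against 11.8% of all genes. Over promyelocyte-stage cells all 6 were more than 2-fold higher in both libraries, with medians of 3.16 and 3.28, against 6.83% of all genes. Mmp8, neutrophil collagenase, stood at 52.2 and 33.5 CPM in members and 2378 and 2453 CPM in non-dividing cells. Mmp9, gelatinase B, stood at 161 CPM in GA members and 60.7 CPM in control members. Itgam, the integrin CD11b, stood at 344 and 363 CPM against 1005 and 1004 CPM. Retnlg, a resistin-like gene of late neutrophils, stood at 630 and 496 CPM against 12910 and 13901 CPM. Of 21 mature neutrophil genes, 16 were more than 2-fold lower and none more than 2-fold higher in members, against 11.8% and 24.6% of all genes. Among the 10 lowest genes were also Cstdc4, a stefin family gene, at 3.63 and 2.94 CPM against 150 and 144 CPM, and the ectoenzyme Nt5e, at 8.88 and 7.69 CPM against 204 and 304 CPM. The other 6 were Sfmbt2, Dmwd, Arhgap24, Bst1, Ggt1 and Asprv1.

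**Figure D2:**
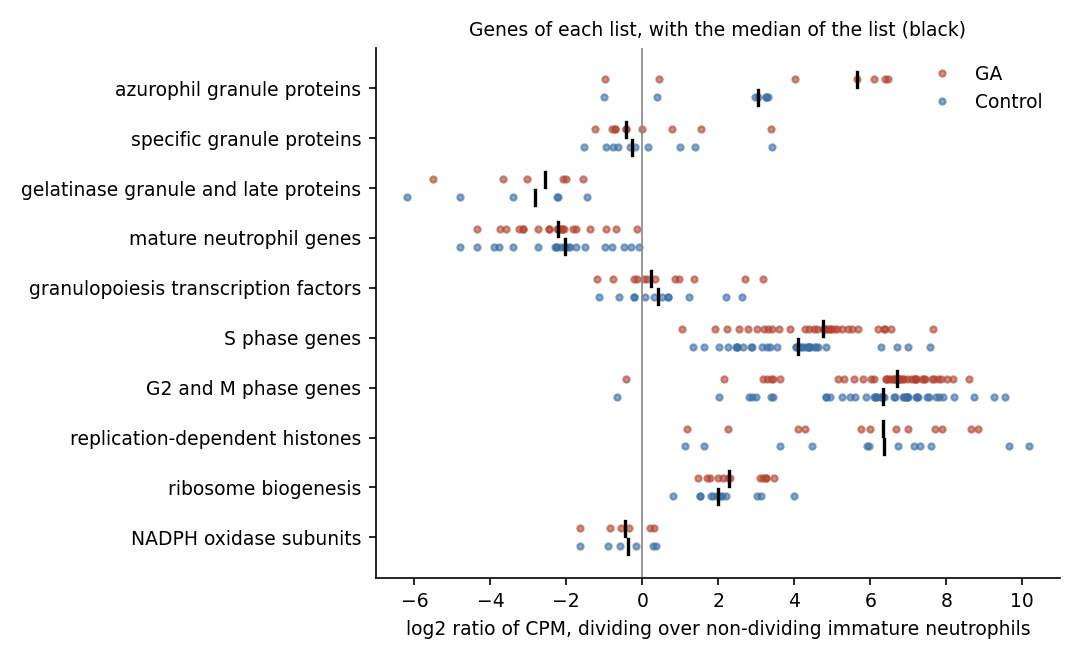
Each point is a gene of a list with at least 20 UMIs, placed by its log2 ratio of CPM in dividing over non-dividing immature neutrophils in GA (red) or the control (blue), and black ticks are list medians. Cell cycle lists lie far to the right, with medians of 4.09 to 6.72, while gelatinase granule and mature neutrophil genes lie to the left, with medians of -2.04 to -2.83. The G2 and M phase list holds the rule genes Mki67, Top2a and Ube2c.

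The share of dividing cells differed by granule stage. Among immature neutrophils thinned to 5000 UMIs, cells with no UMI of Mmp8, Mmp9 and Mmp25 were members in 85.2% (80.7 to 89.0) of 304 GA cells and 88.3% (82.6 to 92.6) of 179 control cells. With 1 to 4 such UMIs the share was 54.5% and 44.6%, and with 5 to 19 it was 14.1% and 7.14%. With 20 or more it was 0 of 1046 GA cells, an exact interval of up to 0.352%, and 1 of 410 control cells. Membership was called before thinning and depends on depth. After thinning 33 of those GA cells (3.15%) and 12 of those control cells (2.93%) had a cell cycle UMI, against 83.2% and 88.8% of cells with no gelatinase UMI. Azurophil transcripts gave the opposite order. Cells with no UMI of Mpo, Elane, Prtn3 and Ctsg were members in 13.6% and 18.7%, cells with 5 to 19 in 40 of 40 and 13 of 13, and cells with 20 or more in 95 of 96 and 45 of 49. Neither gene group was part of the rule, but cells were placed in all of these groups from the same libraries as the rule, so the trend is a description.

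**Figure D3:**
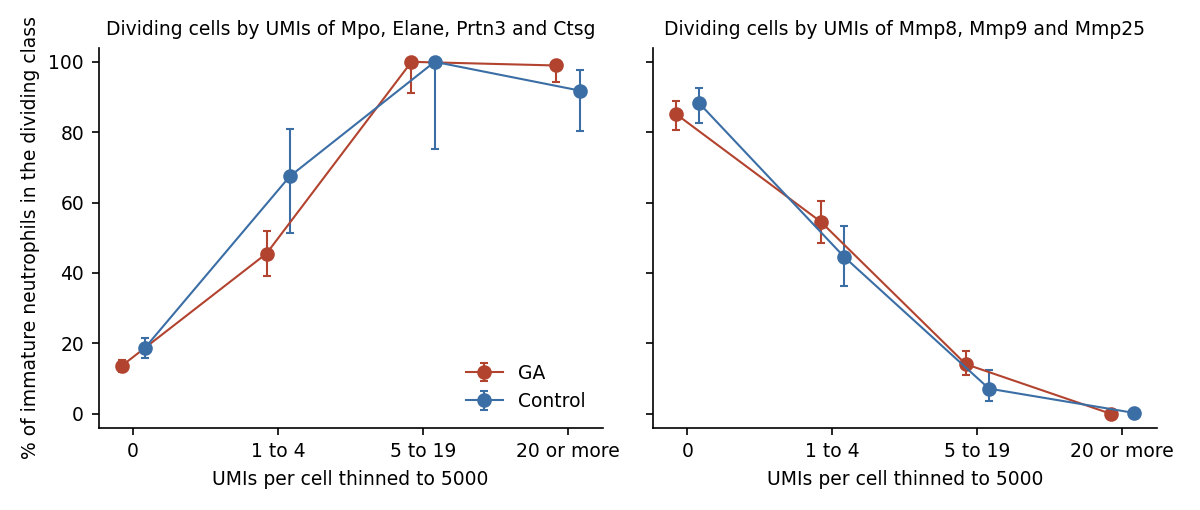
Points give the share (%) of immature neutrophils that were dividing cells, by the number of azurophil UMIs (left) or of gelatinase UMIs (right) in cells thinned to 5000 UMIs, with exact 95% intervals, for GA (red) and the control (blue). The share goes from under 20% to over 90% with azurophil UMIs, and from 85.2% and 88.3% to at most 0.244% with gelatinase UMIs. Dividing cells were called before thinning.

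The members themselves were spread along the same order. They were ordered by the share of UMIs on Mpo, Elane, Prtn3 and Ctsg and divided into 3 ranges, with 131, 185 and 162 GA cells and 106, 52 and 75 control cells from low to high. The sizes depended on depth: the lowest range held 27.4% of GA and 45.5% of control members, and 32.4% and 35.3% when cells were thinned to 5000 UMIs first. The median share was 0 in the lowest range and 0.702% (GA) or 0.751% (control) in the highest. Ltf was at 9155 and 8476 CPM in the lowest range and 2184 and 1677 CPM in the highest. Lcn2, the iron-siderophore-binding lipocalin, was at 12542 and 11571 CPM in the lowest and 5927 and 4118 CPM in the highest. Fcnb was the reverse, at 302 and 492 CPM in the lowest and 1304 and 1992 CPM in the highest. Camp differed less, at 43965 and 50377 CPM against 33214 and 46891 CPM. In the control Lcn2 and Camp were highest in the middle range, at 12030 and 59050 CPM, also with cells thinned first. In GA they were highest in the middle range at full depth, at 13498 and 44101 CPM, and in the lowest range with cells thinned first, at 13366 and 45095 CPM.

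Other genes not used for the order also differed between its ends. Ms4a3, a membrane gene of granulocyte and monocyte progenitors, was at 63.8 and 73.9 CPM in the lowest range and 683 and 745 CPM in the highest. Npm1, a nucleolar gene of ribosome assembly, was at 90.4 and 96.6 CPM against 394 and 324 CPM. Cebpe was at 366 and 386 CPM against 478 and 506 CPM. On the late side, Cd177 was at 1023 and 817 CPM in the lowest range and 269 and 162 CPM in the highest, and Cybb, the catalytic subunit of the NADPH oxidase, at 1885 and 2006 CPM against 837 and 854 CPM. The middle range lay between the ends in both libraries for Ms4a3, Npm1, Cd177 and Cybb. It did not for Cebpe in the control, at 351 CPM. The S phase list summed to 1128 and 1440 CPM in the lowest range and 2755 and 2717 CPM in the highest. The G2 and M phase list, without the rule genes, summed to 4983 and 5406 CPM against 3836 and 3496 CPM, with 5154 CPM in the middle range of GA. The highest range was also the deepest, with medians of 38480 and 30492 UMIs per cell against 23190 and 21162.

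Correlations over thinned cells described the same spread. Spearman's rho of azurophil UMIs with Ltf UMIs was -0.741 over 476 GA members and -0.77 over 232 control members. With Fcnb it was 0.52 and 0.64, with the S phase list 0.503 and 0.427, and with the G2 and M phase list -0.28 and -0.361. For Camp rho was -0.326 in GA and -0.113 in the control. Cells of 1 library share its preparation and are not replicates.

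Of 12 transcription factors of granulopoiesis, 2 were more than 2-fold higher and 1 more than 2-fold lower in members than in non-dividing cells in both libraries, against 24.6% and 11.8% of all genes. Gfi1, a repressor needed for neutrophil differentiation, stood at 19.7 and 20.6 CPM in members and 3.02 and 3.25 CPM in non-dividing cells. Cebpe and Gfi1 were the 2 higher factors, and Klf2, a quiescence-associated factor, was the lower one, at 96.7 and 106 CPM against 222 and 235 CPM. The list median over non-dividing cells was 0.23 in GA and 0.42 in the control, and the GA value became -0.02 when ratios were centred on the median gene. Spi1, the PU.1 factor of all myeloid cells, stood at 349 and 344 CPM in members and 409 and 400 CPM in non-dividing cells. Cebpa, the factor of granulocyte commitment, stood at 6.87 and 7.85 CPM in members and 54.4 and 63.1 CPM in promyelocyte-stage cells. Myb, a progenitor factor, stood at 35.3 and 39.1 CPM against 172 and 182 CPM in promyelocyte-stage cells. Irf8, the monocyte fate factor, stood at 11.7 and 13.1 CPM against 176 and 245 CPM.

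Of 12 ribosome biogenesis genes, 11 were more than 2-fold higher in members than in non-dividing cells in both libraries, against 24.6% of all genes, with medians of 2.27 and 2.00. All 12 were more than 2-fold lower than in promyelocyte-stage cells, as were 29% of all genes. Npm1 stood at 230 and 192 CPM in members and 2259 and 1565 CPM in promyelocyte-stage cells. Of 11 nuclear oxidative phosphorylation genes, 8 were more than 2-fold higher in members than in non-dividing cells, against the same 24.6%. Of 13 glycolysis genes, 1 was more than 2-fold higher and 1 more than 2-fold lower in the same contrast, against 24.6% and 11.8% of all genes, with medians of 0.12 and 0.03, below those of the median gene. The NADPH oxidase subunits, which make the oxidative burst, were already present. Cybb stood at 1344 and 1445 CPM in members and 1982 and 2186 CPM in non-dividing cells, and Cyba at 1683 and 1606 CPM against 1462 and 1333 CPM.

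Of 10 receptor genes of marrow retention and release, 5 were more than 2-fold lower in members than in non-dividing cells in both libraries, against 11.8% of all genes, with list medians of -1.29 and -1.28. Over promyelocyte-stage cells the list medians were 0.49 and 0.45. Itgb1, the beta 1 integrin, stood higher in members than in non-dividing cells, at 64.8 and 76.7 CPM against 28.5 and 43.5 CPM. Cxcr4, the retention receptor for CXCL12, stood at 45.0 and 46.9 CPM in members and 76.7 and 100 CPM in non-dividing cells. Csf3r, the receptor of the neutrophil growth factor G-CSF, stood at 98.27 and 97.99 CPM against 329 and 327 CPM. Cxcr2, the release receptor, stood at 35.6 and 20.9 CPM against 338 and 287 CPM. Ngfr, a neurotrophin receptor gene, had no UMI in members of either library. The summed UMIs of 14857410 in GA and 6113027 in the control set the limit of that 0, and 3 UMIs would be 0.202 and 0.491 CPM. Sort1, the sorting receptor sortilin, stood at 83.7 and 97.0 CPM.

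Between the GA and the control library the members' transcripts were close. Over 6655 genes with at least 200 UMIs in members, the log2 ratio of GA over the control had a median of -0.04, and 80% of genes lay between -0.34 and 0.23. Ratios above 1 were found for 27 genes (0.406%) and ratios below -1 for 40 genes (0.601%). The share beyond 1 in either direction was 1.01% in members, 1.23% in non-dividing immature neutrophils and 2.06% in mature neutrophils. Cell cycle lists had medians of -0.07 (S phase, 32 genes), 0.03 (G2 and M phase, 42 genes) and 0.04 (histones, 12 genes), close to the median gene, and the histone median was -0.18 in cells thinned to 5000 UMIs. Of these genes 1 was beyond 2-fold, the uracil glycosylase Ung, at 22 UMIs in GA and 24 in the control, a ratio of -1.40.

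Most of the ratios below -1 were lost without a few cells with transcripts of other cell types, which were chosen after the values were seen. Removal of the highest doublet scores or of leading cells left more genes below -1, as given under processing. The 4 lowest genes were the MHC class II genes of antigen-presenting cells. H2-Aa stood at 40 UMIs in GA members and 989 in control members, a log2 ratio of -5.89, H2-Eb1 at 45 and 854, H2-Ab1 at 55 and 883, and Cd74 at 123 and 1853. In the control, 10 members (4.29%) with at least 10 such UMIs held 4469 of 4579 of them, and the highest cell held 1256. Hbb-bt, a hemoglobin gene, was at 173 and 538 UMIs, and 1 control cell held 493 of them. Such cells with MHC class II, C1q, hemoglobin or mesenchymal transcripts were 11 GA members (2.30%), 8 of them with a high doublet score, and 14 control members (6.01%), 10 of them with one. Without these 11 and 14 cells the count of genes below -1 was 8, H2-Aa stood at -0.76 and Hbb-bt at -0.95. Those cells were picked by UMIs of MHC class II, C1q, hemoglobin and mesenchymal genes. A change in the ratios of these same genes therefore follows from the choice. Without the barcodes of highest doublet score Hbb-bt changed direction, to 1.97, while H2-Aa stood at -5.37.

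The other lowest genes rested on the same kind of cell in part. C1qb, a macrophage complement gene, had a ratio of -1.68 on 214 and 282 UMIs, and -0.62 without these cells, which were picked in part by its UMIs. Basp1 moved from -1.86 to -0.23, and Phlpp1 from -1.70 to -0.07. Cd86, a costimulatory gene, moved from -1.86 to 1.17, changing its direction. Without the barcodes of highest doublet score Basp1 stood at -3.58, Cd86 at -2.36 and Nlrp3 at -2.35. Nlrp3, the inflammasome sensor, stayed at -1.62 from -1.69, on 89 and 118 UMIs in 6.69% and 7.30% of members.

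Marker lists of other cell types were summed over all members, with those 11 and 14 cells among them. Summed CPM of marker lists in GA and the control were 5.65 and 8.18 for B lineage, 209 and 267 for macrophages (most on Apoe), 742 and 754 for monocytes (most on Ly6c2, at 672 and 682 CPM) and 4.78 and 9.16 for dendritic cells. They were 167 and 471 for erythroid cells (most on Hbb-bs), 9.89 and 8.51 for endothelial cells and 7.87 and 20.9 for platelets. The mesenchymal list summed to 230 and 297 CPM, with Col1a1 its highest gene, at 69.1 and 82.4 CPM. T and NK markers summed to 157 and 168 CPM, nearly all on Nkg7, which promyelocyte-stage cells had at 493 and 569 CPM. Lists for basophils, eosinophils and osteoclasts summed to under 10 CPM in each library. The dendritic marker Xcr1 and the endothelial marker Cdh5 had no UMI in either library.

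The genes with the highest GA ratios were of mixed kind. Lipg, an endothelial lipase gene, had 193 UMIs in GA members and 7 in control members, a log2 ratio of 3.41 (2.43 to 4.84). It was seen in 25.5% of GA members and 2.58% of control members, and its ratio was 3.56 in non-dividing and 1.82 in mature neutrophils. Cstdc5, a stefin family gene with close copies, had 216 and 7 UMIs, 31 of the former in 1 cell, a ratio of 3.57 (2.60 to 5.00), in 7.32% and 2.15% of members. Stfa1, of the same family, had 1196 and 103 UMIs, 291 of them in 1 GA cell. Phgdh, the first enzyme of serine synthesis, had 309 and 40 UMIs, a ratio of 1.65 (1.19 to 2.18), in 19.2% and 8.58% of members. Acvrl1, a receptor of the TGF-beta family, had 183 and 20 UMIs in 15.3% and 6.01% of members, and Il1f9, an interleukin-1 family cytokine, 211 and 28 UMIs in 23.2% and 7.30%. Nrg1, a neuregulin, had 273 and 35 UMIs, 68 of them in 1 GA cell, and its ratio of 1.66 was 0.36 without the barcodes of highest doublet score.

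Ratios of 2 of the 10 highest genes were set by single cells. Mgp, a mesenchymal matrix gene, had 368 and 42 UMIs, of which 1 GA cell held 338, and its ratio of 1.83 became -1.69 without the leading cell of each library. Ccl5 had 241 and 35 UMIs, of which 1 GA cell held 230, and its ratio of 1.48 became 0.07.

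Genes spread over many members were examined next, by limits chosen after the values were seen: UMIs in at least 20% of the members of a library and under 10% of UMIs in the leading cell. Of 6417 such genes, 11 had a ratio above 1 (0.171%) and 4 a ratio below -1 (0.0623%). The limit of 20% could be met in either library, so a gene near it entered through the library where it was higher, and the counts are a description. By the mean share of the 2 libraries, also chosen after seeing the data, 6398 genes met the limit, with 9 above 1 (0.141%) and 4 below -1 (0.0625%). Among the 11, Pdia4, Sdf2l1, Creld2, Calr and Pdia6 encode proteins that fold others in the endoplasmic reticulum (ER). Sdf2l1 stood at 89.0 CPM in GA and 32.4 CPM in the control, a ratio of 1.46 (1.24 to 1.68). Calr, calreticulin, stood at 249 and 120 CPM, a ratio of 1.06 (0.94 to 1.17). Pdia4 and Pdia6, disulfide isomerases, stood at 24.2 and 8.02 CPM and at 164 and 81.8 CPM. Creld2 stood at 34.3 and 14.4 CPM.

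These genes led to a list of 18 ER folding genes, 17 of them with enough UMIs, which is therefore a description and no independent evidence. In members 15 of the 17 had a ratio above 0, with a median of 0.59, against 43.1% above 0 and a median of -0.04 over all genes. Hspa5, the ER chaperone BiP, stood at 246 CPM in GA and 175 CPM in the control, a ratio of 0.50 (0.40 to 0.60). Hsp90b1 stood at 335 and 222 CPM, Pdia3 at 275 and 182 CPM, and Manf at 145 and 94.9 CPM. Xbp1, the factor of the unfolded protein response, stood at 77.9 and 80.2 CPM, a ratio of -0.04, and Dnajb9 had a ratio of -0.10.

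The ER folding genes were also compared between the libraries in the other stages. Their median ratio was 0.41 in promyelocyte-stage cells, with 14 of 17 above 0, against a median of 0.0039 and 50.75% above 0 over all genes there. It was -0.14 in non-dividing immature neutrophils, with 2 of 17 above 0, close to all genes there, which had a median of -0.16 and 25.2% above 0. In mature neutrophils it was -0.38, with none above 0, beside an all-gene median of -0.15 and 28.5% above 0. Within the members it was 0.79 in cells with at least 5 azurophil UMIs after thinning, with 14 of 17 above 0, and 0.19 in those below, with 16 of 17 above 0. The all-gene medians of these cells were -0.0035 and -0.04, with 49.4% and 41.96% of genes above 0. Cells with at least 5 were 28.4% (24.4 to 32.6) of GA members and 25% (19.6 to 31.1) of control members, so the intervals of that share overlap. Calr stood at 509 and 239 CPM in the members with at least 5 azurophil UMIs and at 96.8 and 66.8 CPM in those below. Whether these ratios differ between stages was not tested, since each stage has 1 library per condition.

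**Figure D4:**
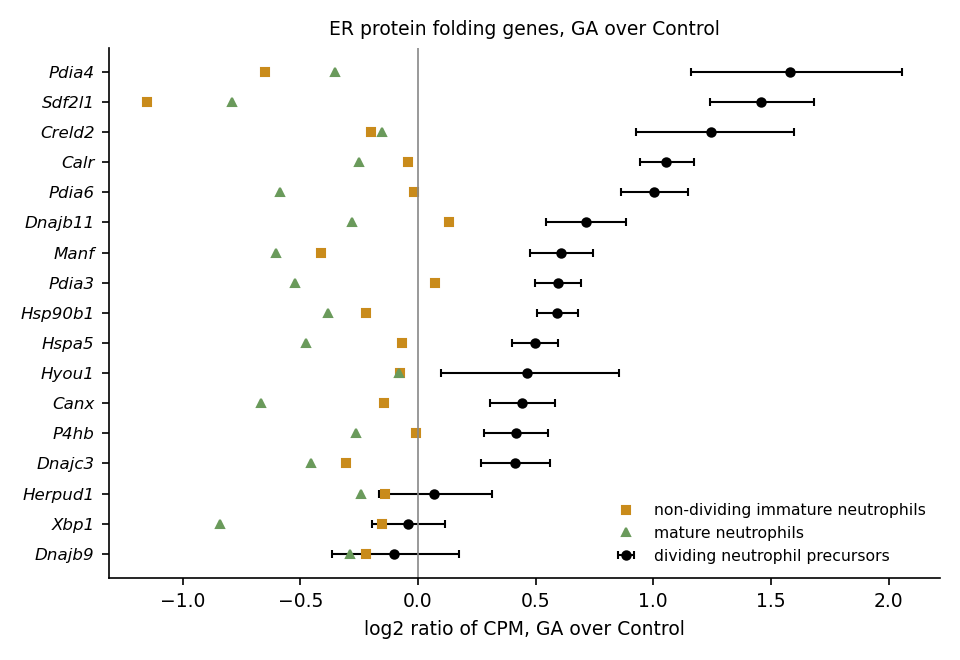
Black points give the log2 ratio of CPM, GA over the control, of 17 ER folding genes in dividing neutrophil precursors, with exact 95% intervals for counting error. Orange squares and green triangles give the ratio in non-dividing immature and mature neutrophils, and 15 of 17 black points lie right of 0, against 2 squares and no triangle. Of all genes, 43.1% were above 0 in the dividing precursors, 25.2% in non-dividing and 28.5% in mature neutrophils, with medians of -0.04, -0.16 and -0.15.

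The other widely seen genes with higher levels in GA members included Mmp9, a late neutrophil gene. It stood at 161 and 60.7 CPM, a ratio of 1.40 (1.25 to 1.57), with UMIs in 50.8% and 32.2% of members. Such shares are at full depth unless 5000 UMIs are named, GA members were deeper, and no background share is given for Mmp9. S100a6, a calcium-binding protein gene, stood at 560 and 260 CPM, a ratio of 1.11 (1.03 to 1.19). Ifitm3, an interferon-inducible membrane gene, stood at 520 and 277 CPM, a ratio of 0.91 (0.83 to 0.98). S100a6 and Ifitm3 were also higher in GA in non-dividing cells, by 0.70 and 0.54, and in mature neutrophils, by 0.59 and 0.56, while in promyelocyte-stage cells their ratios were -0.35 and -0.53. Cxcr2 had a ratio of 0.76 (0.48 to 1.06), and at 5000 UMIs 16.6% of GA members and 8.62% of control members had a UMI, against 3.06% and 1.28% of B lineage cells. Rps2, a ribosomal protein gene with many pseudogenes, stood at 1934 and 1047 CPM. The remaining genes above 1 were 1110038B12Rik, Ceacam10, Ufsp2 and Gm46224, of which Ceacam10 and Gm46224 did not meet the limit by the mean share.

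The widely seen genes below -1 were Rasl11b, a small GTPase, at 10.6 and 23.4 CPM, Slc16a1, a lactate transporter, at 8.62 and 18.8 CPM, the lectin receptor gene Clec4b2, at 11.4 and 24.4 CPM, and Sncaip, at 16.6 and 34.2 CPM. Jun, an immediate early factor, stood at 114 and 204 CPM, a ratio of -0.84 (-0.95 to -0.73), and Alcam, an adhesion gene, at 196 and 340 CPM. Kit, the stem cell factor receptor of progenitors, stood at 14.7 and 23.9 CPM. Fcnb had a ratio of -0.49 (-0.53 to -0.45) and Camp of -0.37, with intervals that are narrow because of their large counts and cover no spread between mice.

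Granule and maturation lists were also compared between the libraries. Median ratios of GA over the control were 0.29 for 7 azurophil genes, -0.08 for 10 specific granule genes, 0.22 for 6 gelatinase and late genes and 0.16 for 21 mature neutrophil genes. Of these genes, 3 had a ratio above 1 (Mmp9, Fpr1 and Wfdc17) and 1 a ratio below -1 (Il1b), against 0.406% and 0.601% of all genes, and the list genes were taken from 20 UMIs, all genes from 200. Fpr1, the formyl peptide receptor, had 239 and 46 UMIs, and Wfdc17, of which 1 GA cell held 116 UMIs, 406 and 75. Il1b, interleukin-1 beta, stood at 47.8 and 101 CPM and was seen in 28.9% and 17.6% of members, with 136 of its 619 control UMIs in 1 cell. Transcription factors had a median of -0.15, with Myc at 1.04 on 87 and 17 UMIs (35 of the former in 1 cell, and 0.48 without the leading cells), ribosome biogenesis -0.31, NADPH oxidase subunits 0.06, oxidative phosphorylation 0.16 and glycolysis 0.16. Gapdh, a glycolytic enzyme, stood at 1376 and 927 CPM.

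Interferon response genes were low in both libraries, and all 9 of 13 with at least 20 UMIs had a ratio below 0, with a median of -0.67, where 43.1% of all genes were above 0 with a median of -0.04. The median was -0.23 without the 11 and 14 cells with transcripts of other types. Ifi27l2a stood at 20.1 and 50.1 CPM, with 65 of 298 GA UMIs and 68 of 306 control UMIs in 1 cell each, and Isg15 at 5.72 and 8.51 CPM. Inflammatory activation genes gave a ratio below 0 for all 7 of 8 with enough UMIs, with a median of -0.40, against the same shift of all genes. Of them the chemokine genes Ccl3 and Ccl4 were below -1, on 86 and 88 and on 144 and 184 UMIs, and 66 of the control Ccl4 UMIs were in 1 cell.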

How the data were processed

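The authors deposited, per condition, a matrix of whole-number UMI counts per gene and cell barcode. Per the file headers it was made with Cell Ranger 7.0.1, and per the labels on genome build mm10. No normalization was seen in the values. The labels and the paper's methods differ in the dose and the length of treatment, and the labels were followed.

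Limits on cells were 500 to 140000 UMIs, 200 to 9500 detected genes and at most 15% mitochondrial UMIs. Doublets were kept in the main values. Scrublet in scanpy 1.11.5 marked 0 GA and 26 control barcodes (0.321%) at its own threshold, which is too few to be of use, so the 653 and 524 cells with the highest scores were removed as an alternative. They held 42 (8.79%) and 16 (6.87%) of the members.

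For each class and library, UMIs were added up per gene and scaled by the total of the class (CPM). The methods of the study also sum counts per group, which leaves 1 sum per condition here, so no test was run. A log2 ratio added 0.5 UMI to each count, with an exact conditional binomial interval. Shares have exact Clopper-Pearson intervals and their ratios log-normal intervals (scipy 1.17.1). Genes needed 200 UMIs to be counted beyond 2-fold and 20 to enter a list median. Gene positions are from GENCODE vM21, promoters from RefSeq, of which 27025 symbols were matched.

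The members and gene lists were chosen with earlier results of these data known. Named genes are the rule genes and markers, genes of the lists, the 10 highest and 10 lowest in each contrast and the 5 with most UMIs; other genes, the limits for widely seen genes, the members with transcripts of other cell types and the ER list were chosen after the values were seen. Alternatives changed doublets, thresholds, depth, scaling, gene filters and single cells. The steps were tested on simulated data. Some genes that these rules would name are not reported here.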

Additional observations from a re-analysis of the deposited data

How the results depend on the processing

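No paired analysis was possible because each condition has 1 library. Limits: a ratio between conditions has no spread between mice, the 2 libraries differ in depth, and neutrophil RNA in other cells differed between them. The ratio of member shares among kept cells lay between 1.75 and 1.91 and among immature neutrophils between 0.865 and 0.937 under every alternative run. Without the barcodes of highest doublet score, 21 genes were below -1 in GA over the control in place of 40. With at least 5 cell cycle UMIs these were 26. In cells thinned to 5000 UMIs, 4 genes were above 1 in place of 27 and 3 below -1, of 2156 genes that passed the filter there, and 903 of 5147 genes were above 1 in members over non-dividing cells in place of 2004 of 8147. Thinning moved the GA ratios of 10 of the 20 highest and lowest genes, and the median GA ratios of 5 of 15 lists. Removal of the highest doublet scores moved 4 of these medians. A minimum of 100 UMIs gave 42 above and 83 below, and one of 500 UMIs gave 9 above, 12 below and 1290 over non-dividing cells. Of alternatives chosen after seeing the data, removal of members with transcripts of other cell types left 8 genes below -1, and removal of the leading cell of each gene and library left 22. Directions changed for 4 named genes. Mgp became -1.59 without the highest doublet scores, -1.66 without members with other transcripts and -1.69 without its leading cells. Without the highest doublet scores Ccl5 became -0.14 and Hbb-bt 1.97, and Cd86 became 1.17 without members with other transcripts. For Mgp, Ccl5 and Hbb-bt the leading cell held 338 of 368 and 230 of 241 GA UMIs and 493 of 538 control UMIs. Without the leading cells Ccl5 stood at 0.07 and Hbb-bt at -0.78. For Cd86 the alternative itself took out the cells with other transcripts, and Mgp was among the genes by which those cells were picked.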
